A study of Mus musculus with 80 samples.

Results

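NF-kB is a family of transcription factors built from 5 subunits, encoded by Nfkb1, Nfkb2, Rela, Relb and Rel. These were described with Nfkbia and Nfkbie, which encode inhibitors that hold the factor in the cytoplasm, and with Tnfaip3, Birc3 and Traf1, which NF-kB is known to induce and whose products act back on its pathway. The 10 genes were taken by symbol from both deposited gene tables, where each had 1 Ensembl row among 41388 genes in the first table and 40481 in the second. All 10 passed the filters on low values in each of the 22 comparisons.

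In resting cells the inhibitors bind NF-kB dimers. Signals from TNF, interleukin 1, Toll-like and related receptors activate the IkB kinase complex, the inhibitors are degraded, and the freed dimers enter the nucleus. Nfkbia and Nfkbie are themselves targets of the factor and are made again as it acts, which closes a feedback loop, while Nfkb2 and Relb belong to a slower, non-canonical branch. In blood-forming cells the pathway is known for its part in survival, emergency blood formation and inflammation.

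RNA was sequenced from stem cells of the mouse blood system (HSC) and from the more mature progenitors they give rise to (HPC), with B6 as the strain in all groups. In the age series of the first table, HSC were taken in the fetus at E14, E16 and E18, at birth (P0), on postnatal days 7 and 14 (P7 and P14) and in Adult mice 8 weeks old, with 3, 4, 3, 4, 4, 4 and 4 libraries. HPC were sampled at E16, P0, P7, P14 and Adult, with 3, 4, 4, 5 and 4 libraries. No genotype is given for the age series. In the second table, P0 libraries labelled Ifnar ko (4 of HSC and 4 of HPC) stood beside P0 wild type (5 of HSC and 4 of HPC). P14 HPC had 4 genotypes that combined Ifnar -/- or +/- with Flt3 ITD/+ or +/+, with 5 libraries of Ifnar -/-, Flt3 ITD/+ and 4 of each other genotype. Ifnar is the receptor of type I interferon, Flt3 a receptor kinase of progenitors, and the ITD an activating internal duplication known from leukemia. All P14 mice of the genotype series thus lacked at least 1 Ifnar copy, and no Ifnar +/+ group stood beside them. The labels do not say which receptor chain was deleted, how the alleles were made, from which organ or by which markers the cells were sorted, or whether replicates came from separate animals. The p-values below therefore measure the spread between these libraries, which may be technical.

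Library totals were 6.95 to 24.03M reads in age HSC, 7.91 to 25.4M in age HPC, 37.0 to 46.3M in P0 genotype HSC, 11.7 to 14.7M in P0 genotype HPC and 58.4 to 92.1M in P14 genotype HPC. The summed level of 8 HSC markers was 2672 to 4254 CPM in age HSC and 1191 to 2591 CPM in age HPC, and that of 6 progenitor markers was 402 to 1446 CPM in age HSC and 3018.04 to 20835 CPM in age HPC. Ifnar1 was not lower in libraries labelled Ifnar ko (9.88 to 11.9 RPKM in P0 Ifnar ko HSC against 8.69 to 12.7 RPKM in wild type HSC, and 13.3 to 14.96 RPKM in Ifnar ko HPC against 9.16 to 13.5 RPKM in wild type HPC), so reads over that gene do not check the label. Irf7, an interferon-induced gene, was at 3.26 to 5.85 RPKM in P0 Ifnar ko HSC against 77.9 to 205 RPKM in wild type HSC, and at 2.16 to 3.42 RPKM in Ifnar ko HPC against 72.2 to 134 RPKM in wild type HPC. In the P14 genotype series, replicate 2 of Ifnar +/-, Flt3 +/+ stood apart from its group, with Flt3 at 140.5 RPKM against 13.4 to 20.7 RPKM in the other 3 libraries. Flt3 was at 78.4 to 133 RPKM in Ifnar -/-, Flt3 +/+ HPC and at 22.4 to 190 RPKM in P14 HPC of the age series. Whether replicate 2 or the other 3 libraries are the unusual ones cannot be told. Calls and marker sums that use the Ifnar +/-, Flt3 +/+ group are given with and without replicate 2. Cell types and genotype sets also carried different library codes in their titles, whose meaning the labels do not give.

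The promoters of 4 of the genes are shown because they hold a match to the kappa B motif, the site that NF-kB dimers bind. RefSeq windows on GRCm38.p6, from 250 bases before to 50 bases after an annotated start, were found for 8 of the 10 genes, in 11 windows. A 10-base kappa B consensus, sought on both strands, matched in 7 of these windows and in 5 of the genes, against 8.46% of 32851 windows of all genes. The 250 bases before the start are printed 5′ to 3′ on the gene's strand, with matched bases in capitals.
Nfkbia, chr12:55492648-55492897 (minus strand): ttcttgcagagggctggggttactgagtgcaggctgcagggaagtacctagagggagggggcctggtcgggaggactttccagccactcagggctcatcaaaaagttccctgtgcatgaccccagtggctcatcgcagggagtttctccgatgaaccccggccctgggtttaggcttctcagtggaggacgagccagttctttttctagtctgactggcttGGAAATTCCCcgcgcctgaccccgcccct
Nfkbie, chr17:45555450-45555699 (plus strand): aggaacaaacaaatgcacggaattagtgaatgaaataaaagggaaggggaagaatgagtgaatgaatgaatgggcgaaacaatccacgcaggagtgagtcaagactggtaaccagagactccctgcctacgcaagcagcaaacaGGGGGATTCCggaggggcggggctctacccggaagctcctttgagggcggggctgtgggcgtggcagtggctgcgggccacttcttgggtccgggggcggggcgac
Nfkb2, first of 3 windows, chr19:46304487-46304736 (plus strand): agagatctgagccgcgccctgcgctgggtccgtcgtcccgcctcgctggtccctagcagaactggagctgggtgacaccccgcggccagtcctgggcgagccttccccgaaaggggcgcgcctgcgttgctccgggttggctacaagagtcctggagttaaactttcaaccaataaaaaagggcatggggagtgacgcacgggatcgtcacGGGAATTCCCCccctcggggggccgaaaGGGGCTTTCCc
Rel, chr11:23770970-23771219 (minus strand): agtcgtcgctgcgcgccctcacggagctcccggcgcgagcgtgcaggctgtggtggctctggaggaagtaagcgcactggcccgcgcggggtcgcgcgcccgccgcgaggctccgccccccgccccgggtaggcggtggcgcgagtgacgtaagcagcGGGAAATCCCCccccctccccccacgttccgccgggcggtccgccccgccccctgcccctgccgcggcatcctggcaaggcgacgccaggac
The Nfkbia match lies at bases -29 to -20 from the start and the Nfkbie match at -106 to -97. In Nfkb2, overlapping matches on the 2 strands cover -39 to -29, and a further match covers -11 to -2. In Rel, overlapping matches cover -92 to -82. Tnfaip3 also held matches, and Rela, Birc3 and Traf1 held none in these windows, which says only that these letters are not there. Nfkb1 and Relb were not matched to a window. A match is a description of the letters and not evidence of binding.

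Levels are given as RPKM, reads per kilobase of exon scaled to the read total of the library, so that genes can be set side by side. Over all 80 libraries the order of the medians was Nfkbia at 58.4, Rela at 52.2, Nfkb1 at 40.05, Nfkbie at 11.3, Birc3 at 9.76, Traf1 at 1.80, Nfkb2 at 1.60, Rel at 1.56, Relb at 0.676 and Tnfaip3 at 0.490 RPKM. The order differed between the cell types. Nfkbia had a median of 73.7 RPKM in age HSC, above Rela at 61.0 and Nfkb1 at 40.7 RPKM, but of 30.4 RPKM in age HPC, below Rela at 43.8 and Nfkb1 at 36.9 RPKM. Traf1 lay above Rel in age HSC (3.90 and 1.24 RPKM) and below it in age HPC (1.11 and 2.58 RPKM). Rela and Nfkb1, which make up the classical dimer, stood far above Nfkb2, Rel and Relb. The ranges over libraries, from 32.2 to 76.7 RPKM for Rela and from 23.2 to 60.2 RPKM for Nfkb1, did not overlap those of Nfkb2 (0.456 to 5.29), Rel (0.352 to 6.14) or Relb (0.163 to 3.01). Nfkbia spanned 16.2 to 145 RPKM, the widest range in RPKM of the 10. Relb rested on 5 to 261 reads a library and Tnfaip3 on 13 to 511 reads, so their values are the least precise.

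Nfkbia (ENSMUSG00000021025), which encodes the inhibitor IkB alpha, was the member that rose most clearly with age in HSC. NF-kB activity itself was not measured, and what raised Nfkbia RNA was not tested. It had 28.7, 43.2 and 46.5 RPKM at E14, 52.7, 46.9, 55.9 and 53.8 RPKM at E16, and 55.8, 69.1 and 68.0 RPKM at E18. After birth it had 60.4, 73.6, 109.7 and 97.9 RPKM at P0, 73.8, 67.1, 75.9 and 74.9 RPKM at P7, 143, 113, 134 and 136 RPKM at P14, and 145, 118, 103 and 138 RPKM in Adult HSC. The P14 libraries all lay above the P7 libraries and the Adult libraries all above the E16 libraries, whereas P14 and Adult overlapped. Adult HSC exceeded E16 HSC by a log2 fold change of 1.25 ± 0.15 (SE, n = 4 each, adjusted p = 5.3e-07, limma with Benjamini-Hochberg adjustment), and P14 exceeded P7 by 0.84 ± 0.15 (n = 4 each, limma adjusted p = 0.00333).

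The library codes of HSC were shared by E14, E16 and E18, by P7 and P14, and by P0 and Adult, and other pairs of HSC ages differ in code. Nfkbia was called within 2 of these codes, between P14 and P7 above and, in a comparison added after the data were seen, in Adult against P0 HSC (0.60 ± 0.15, n = 4 each, limma adjusted p = 0.00552), where it was the 1 member called and 21.1% of genes were called. These P0 and Adult libraries overlapped, since P0 replicate 3 had 109.7 RPKM and Adult replicate 3 had 103 RPKM. From E16 over E14 the difference was 0.38 (95% interval 0.05 to 0.70, limma adjusted p = 0.747) and from E18 over E16 it was 0.25 (-0.07 to 0.58, adjusted p = 0.429). None of the 10 genes was called by limma between E16 and E14, where 0.0524% of all genes were called, between E18 and E16 (5.52%), P0 and E18 (4.81%) or P7 and P0 (5.91%). In these comparisons 2, 0, 2 and 0 members had an unadjusted p under 0.05, and edgeR on recovered reads called 0 in each. Without P0 replicate 1, limma called Nfkbia in P0 over E18 HSC (0.55, adjusted p = 0.04).

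Nfkb2 (ENSMUSG00000025225), whose product is processed into the DNA-binding partner of Relb, also rose between E16 and Adult HSC. It had 4.11, 2.44, 2.06 and 5.29 RPKM in Adult HSC against 0.901, 1.37, 2.15 and 0.914 RPKM in E16 HSC, and the groups overlapped only through the highest E16 library. The log2 fold change was 1.09 ± 0.30 (n = 4 each, limma adjusted p = 0.00878). Nfkbia and Nfkb2 were the 2 members called in Adult against E16 HSC, both higher, where 24.6% of 13358 genes were called and 12.2% were called higher. The median log2 fold change was 0.41 over the 10 members and 0.02 over all genes tested. Traf1 (0.59 ± 0.24, adjusted p = 0.0741) passed the threshold without Adult replicate 1 (0.72, adjusted p = 0.0432). It also passed with only these groups fitted (0.59, limma adjusted p = 0.0496).

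Nfkbie (ENSMUSG00000023947), the inhibitor IkB epsilon, ran the other way late in HSC life. It had 9.93, 10.03, 8.05 and 9.79 RPKM in Adult HSC against 17.4, 14.1, 16.1 and 30.5 RPKM in P14 HSC, and the groups did not overlap. Its log2 fold change was -0.95 ± 0.19 (n = 4 each, limma adjusted p = 0.00166), the only member called between these ages, at which 5.43% of genes were called. Beside it, B cell markers summed to 109 to 140 CPM in Adult HSC against 202 to 241 CPM in P14 HSC over 5 markers, with Ms4a1 at 0 in both. Endothelial markers were also lower (194 to 290 CPM in Adult HSC against 326 to 377 CPM in P14 HSC over 5 markers), while T and NK cell markers were higher (72.7 to 91.2 CPM in Adult HSC against 27.0 to 42.4 CPM in P14 HSC over 6 markers, Cd3e and Gzma at 0 in both), as were hepatocyte markers (16.6 to 27.7 CPM in Adult HSC against 6.16 to 12.6 CPM in P14 HSC). The part of these in the result was not tested. Adult Nfkbie also lay below all 4 E16 libraries (14.6, 12.8, 11.99 and 13.0 RPKM), with a log2 difference of -0.45 (95% interval -0.82 to -0.09, limma adjusted p = 0.0792). With only the Adult and E16 groups fitted, Nfkbie was called lower (-0.46, limma adjusted p = 0.029). Between P14 and P7 HSC the 1 member called was Nfkbia, at a background of 1.75%. At P14 over P7, Traf1 had 7.97, 6.13, 4.80 and 4.77 RPKM at P14 against 3.37, 4.64, 1.88 and 2.92 RPKM at P7, without overlap (0.82 ± 0.24, limma adjusted p = 0.0853), and without P7 replicate 2 it was called (0.997, adjusted p = 0.0439).

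Traf1 (ENSMUSG00000026875), an adaptor of TNF receptors, was lowest in the youngest HSC. It had 1.11, 1.63 and 2.05 RPKM at E14, 3.38, 2.898, 3.69 and 3.04 RPKM at E16, 7.97, 6.13, 4.80 and 4.77 RPKM at P14 and 3.95, 6.63, 4.53 and 5.86 RPKM in Adult HSC. All E16 libraries lay above all E14 libraries, yet limma gave an adjusted p of 0.423 for that step (0.82 ± 0.26, n = 4 and 3). In the added comparison of P14 with E16 HSC, limma called 4 members higher, Nfkbia (1.32), Nfkb2 (0.96), Traf1 (0.75) and Nfkb1 (0.47 ± 0.11, adjusted p = 0.0027), where 18.4% of genes were called and 9.59% were called higher. Nfkb1 (ENSMUSG00000028163), which encodes the precursor of the classical DNA-binding subunit, had 45.6, 47.6, 46.5 and 43.7 RPKM at P14 against 35.1, 29.2, 34.0 and 34.1 RPKM at E16, without overlap. The Nfkb2 call was lost on leaving out any of 4 libraries, E16 replicate 1 or 4 or P14 replicate 3 or 4 (0.85 to 0.96, adjusted p = 0.05 to 0.0835), and the Traf1 call on leaving out any of 5, E16 replicate 1, 2 or 4 or P14 replicate 1 or 2 (0.60 to 0.76, adjusted p = 0.0509 to 0.118).

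No other member was called between Adult and E16 HSC. Rela (ENSMUSG00000024927), the main activating subunit, averaged 67.1 ± 7.12 RPKM in Adult HSC and 55.8 ± 6.19 RPKM in E16 HSC (SD, n = 4 each), with a log2 difference of 0.26 (95% interval -0.0035 to 0.53, limma adjusted p = 0.167). Rel (ENSMUSG00000020275), the subunit best known from lymphocytes, averaged 1.74 ± 0.589 RPKM in Adult HSC and 0.986 ± 0.245 RPKM in E16 HSC (SD, n = 4 each; 0.57, limma adjusted p = 0.164). Tnfaip3 (ENSMUSG00000019850), an enzyme that edits ubiquitin chains to stop signaling, averaged 0.942 ± 0.336 RPKM in Adult HSC and 0.412 ± 0.110 RPKM in E16 HSC (SD, n = 4 each). Its groups did not overlap, with a log2 difference of 0.64 (0.0022 to 1.28, limma adjusted p = 0.159). The interval rests on a normal quantile, and Tnfaip3 was not among the members with an unadjusted p under 0.05. Birc3 (ENSMUSG00000032000), a ubiquitin ligase of TNF receptor complexes, averaged 8.88 ± 2.34 RPKM in Adult HSC and 8.34 ± 0.632 RPKM in E16 HSC (SD, n = 4 each; 95% interval of the log2 difference -0.34 to 0.44). Relb (ENSMUSG00000002983), the non-canonical activating subunit, spanned 0.389 to 2.21 RPKM in Adult HSC and 0.180 to 1.71 RPKM in E16 HSC, and its log2 interval of -0.97 to 0.63 covers a change of either sign.

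**Figure D1:**
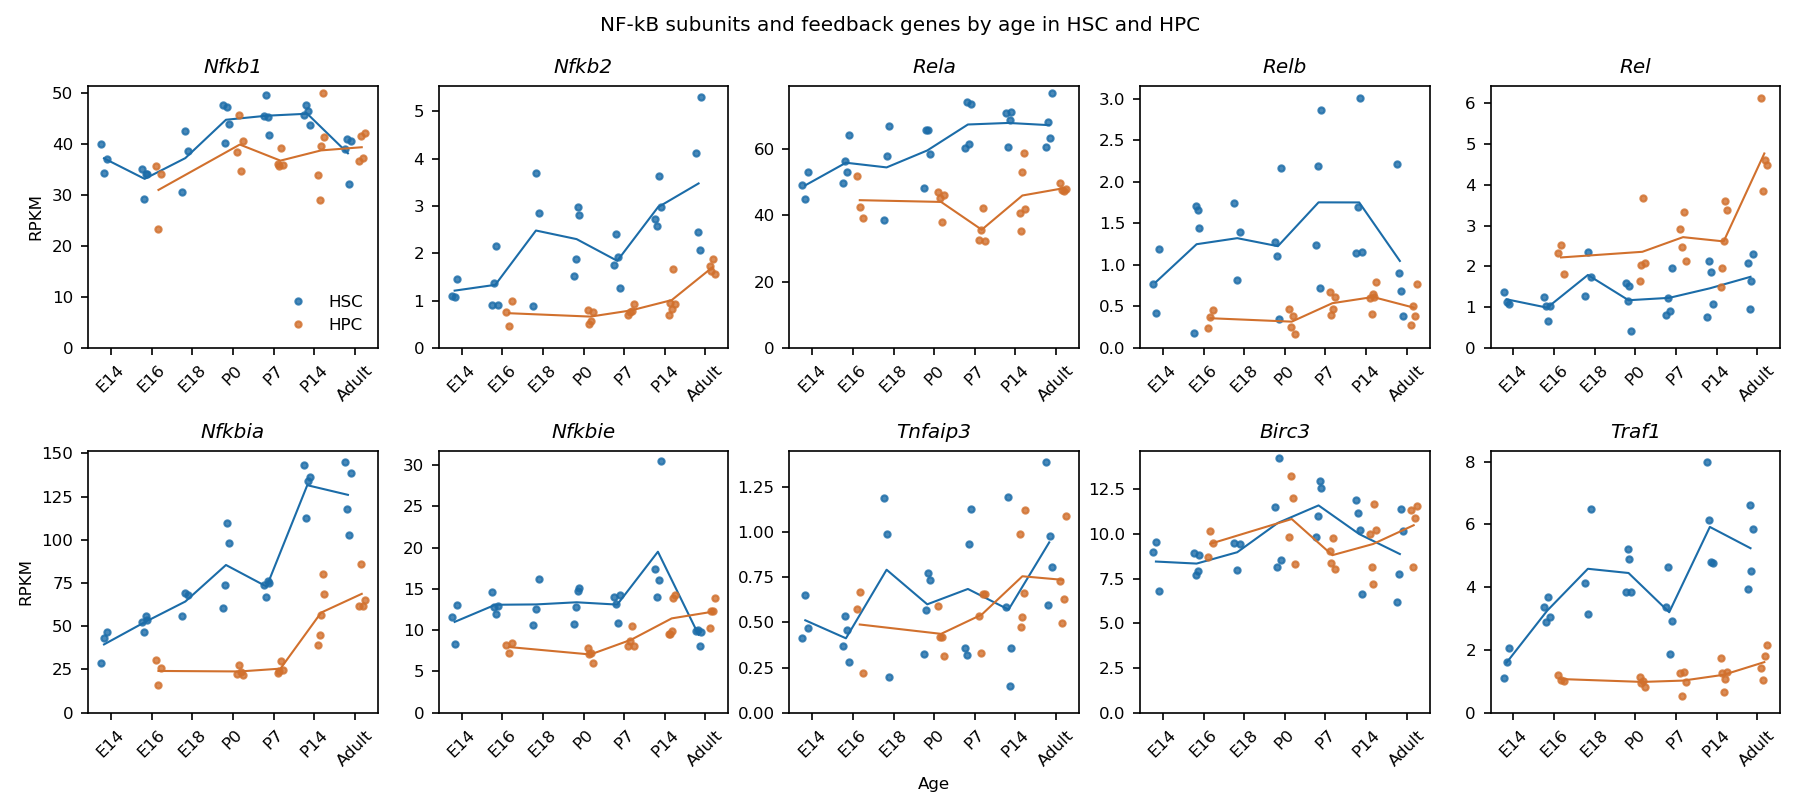
RPKM of each of the 10 genes by age in HSC (blue) and HPC (orange) of the age series, 1 point per library, with lines joining group means and each vertical axis starting at 0. Nfkbia climbed to 103 to 145 RPKM in P14 and Adult HSC and to 39.2 to 86.0 RPKM in P14 and Adult HPC, while Traf1 stayed higher in HSC and Rel higher in HPC.

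Other genes of the pathway were counted from 6 lists of 58 genes in all. Of 51 tested in Adult against E16 HSC, 10 were called higher and 3 lower by limma, or 25.5% beside the 24.6% of all genes. Among them were Irf1, an induced transcription factor (1.23 ± 0.13), the adhesion molecule Vcam1 (4.09 ± 0.45), the TNF receptor adaptor Tradd (0.87 ± 0.15) and the chemokine Ccl5 (3.51 ± 0.63), all 4 higher. The 3 lower ones were the kinase-binding proteins Tab1 (-0.72) and Tab2 (-0.62) and the receptor Tlr2 (-0.47). None of the 3 IkB kinase genes was called. Vcam1 is itself among the 8 macrophage markers, so their sum includes it and is no separate measure beside its rise. The sum without Vcam1 was not computed. The summed level of 8 macrophage markers was 94.4 to 155 CPM in Adult HSC and 61.5 to 92.2 CPM in E16 HSC, with Mertk at 0 in every E16 library, and that of 6 T and NK cell markers was 72.7 to 91.2 CPM in Adult HSC and 18.2 to 42.0 CPM in E16 HSC, with Cd3e and Gzma at 0 in both. Hepatocyte markers summed to 16.6 to 27.7 CPM in Adult HSC and 7.24 to 9.77 CPM in E16 HSC. Other lists were lower in Adult HSC, the progenitor markers at 402 to 556 CPM in Adult HSC against 883 to 1350 CPM in E16 HSC, the B cell markers at 109 to 140 CPM in Adult HSC against 166 to 197 CPM in E16 HSC and the endothelial markers at 194 to 290 CPM in Adult HSC against 356 to 412 CPM in E16 HSC. Of 9 marker lists, 4 had ranges that did not overlap between Adult and P0 HSC (2 higher, 2 lower) and 5 between P14 and E16 HSC (4 higher, 1 lower). Progenitor markers were lower in both (402 to 556 CPM in Adult HSC against 768 to 1446 CPM in P0 HSC, and 525 to 667 CPM in P14 HSC against 883 to 1350 CPM in E16 HSC). B cell markers were lower and T and NK cell and hepatocyte markers higher in Adult than in P0 HSC. Macrophage markers were higher at P14 (131 to 166 CPM) than at E16 (61.5 to 92.2 CPM). So were HSC markers (3554 to 4254 against 2999 to 3265 CPM). B cell (202 to 241 against 166 to 197 CPM) and stroma markers (7.66 to 13.6 against 2.03 to 5.81 CPM) rose too. The part of these in the results for the 10 genes and for the pathway was not tested, and in bulk RNA a change in the share of a cell type and a change in RNA per cell cannot be told apart. Between P14 and P7 HSC, where Nfkbia was called, macrophage markers summed to 131 to 166 CPM at P14 and 133 to 165 CPM at P7, T and NK cell markers to 27.0 to 42.4 CPM at P14 and 25.5 to 34.4 CPM at P7, and B cell markers, the 1 list without overlap, to 202 to 241 CPM at P14 and 183 to 198 CPM at P7. Of 51 pathway genes, limma called 0 in that step.

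Nfkbia rose in HPC of the age series as well, and the step there lay between P7 and P14. It had 30.6, 16.2 and 25.7 RPKM at E16, 22.5, 27.7, 23.7 and 21.6 RPKM at P0, and 22.7, 24.1, 30.2 and 24.9 RPKM at P7. It then had 39.2, 45.1, 56.2, 80.2 and 68.7 RPKM at P14 and 62.0, 86.0, 61.8 and 65.2 RPKM in Adult HPC. Every P14 and Adult library lay above every library of the 3 earlier ages. P14 HPC exceeded P7 HPC by a log2 fold change of 1.29 ± 0.18 (n = 5 and 4, adjusted p = 0.000163, edgeR quasi-likelihood test with Benjamini-Hochberg adjustment), and Adult exceeded E16 HPC by 1.38 ± 0.20 (n = 4 and 3, edgeR adjusted p = 2.93e-05). Adult and P14 HPC overlapped (0.04, 95% interval -0.30 to 0.37, edgeR adjusted p = 0.894). The genotype series did not show low Nfkbia at P0. Its P0 wild type HPC had 58.2 to 78.4 RPKM and its P14 HPC, over all genotypes, 25.4 to 67.8 RPKM. The rise is therefore a result of the age series only, and the difference between the series was not tested.

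Each HPC age carries a library code of its own, so age and code cannot be told apart in HPC. Between P14 and P7 HPC, edgeR called 3 members higher and none lower, where 9.88% of genes were called and 4.83% were called higher. Besides Nfkbia these were Rela (0.49 ± 0.13, adjusted p = 0.0223) and Nfkbie (0.49 ± 0.14, adjusted p = 0.0286). Rela had 40.6, 35.4, 52.9, 58.9 and 41.9 RPKM at P14 against 32.4, 35.7, 42.2 and 32.2 RPKM at P7, and Nfkbie had 9.53, 9.55, 9.89, 13.9 and 14.2 RPKM at P14 against 8.10, 8.71, 10.5 and 8.03 RPKM at P7. Both pairs of groups overlapped. The Rela call was lost without P7 replicate 1 or 4 (0.46, adjusted p = 0.0617 to 0.0809), without TMM scaling and with only these groups fitted, and the Nfkbie call without P7 replicate 1, 2 or 4 or P14 replicate 4 (0.44 to 0.49, adjusted p = 0.0595 to 0.0917). The Nfkbie call was also lost in 4 of 5 other settings, with no filter, without TMM scaling, with the replicate block and with only these groups fitted (0.37 to 0.51, adjusted p = 0.0633 to 0.146). All 10 members had a positive log2 fold change, with a median of 0.43 against 0.02 over 14754 genes. In the added comparison of P14 with E16 HPC, edgeR called Nfkbia (1.34 ± 0.20, adjusted p = 6.41e-05) and Nfkbie (0.61 ± 0.15, adjusted p = 0.01) higher, where 10.8% of genes were called and 6.27% were called higher, and the Nfkbie call was lost without E16 replicate 2 (0.57, adjusted p = 0.0559). It was also lost without TMM scaling, with the replicate block and with only these groups fitted (0.52 to 0.58, adjusted p = 0.0584 to 0.128).

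Between Adult and E16 HPC, edgeR called 4 members higher and none lower, where 27% of genes were called and 14.9% were called higher. These were Nfkbia, Nfkb2, Rel and Nfkbie. Nfkb2 had 1.74, 1.64, 1.88 and 1.57 RPKM in Adult HPC against 0.754, 0.456 and 0.989 RPKM in E16 HPC (1.11 ± 0.30, edgeR adjusted p = 0.00947), without overlap. Leaving out E16 replicate 2 ended that call (0.86, adjusted p = 0.0794). Rel had 6.14, 3.84, 4.61 and 4.48 RPKM in Adult HPC against 2.32, 2.53 and 1.80 RPKM in E16 HPC (0.94 ± 0.28, edgeR adjusted p = 0.0155), also without overlap, and the call was lost without Adult replicate 1 or E16 replicate 3 (0.77 to 0.79, adjusted p = 0.0644 to 0.07).

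Nfkbie had 10.3, 12.3, 12.4 and 13.9 RPKM in Adult HPC against 8.24, 7.19 and 8.45 RPKM in E16 HPC, without overlap. The difference of 0.48 ± 0.16 was called by edgeR (adjusted p = 0.0264) but not on leaving out Adult replicate 3 or 4 or any E16 library (0.39 to 0.50, adjusted p = 0.053 to 0.121), nor with no filter, with the replicate block or with only these groups fitted (0.46 to 0.49, adjusted p = 0.0565 to 0.0772). Rel was the 1 member called between Adult and P14 HPC, at a background of 29%, with 1.48, 1.97, 2.62, 3.60 and 3.38 RPKM at P14 (0.65 ± 0.23, edgeR adjusted p = 0.0403). All 4 Adult libraries lay above the 5 P14 libraries, and 6 of 9 fits that left out 1 library lost the call (without Adult replicate 1, 3 or 4 or P14 replicate 1, 2 or 3; 0.51 to 0.68, adjusted p = 0.0655 to 0.162). Without P14 replicate 4, Nfkb2 was called beside it (0.72, adjusted p = 0.0291). No member was called by edgeR between P0 and E16 HPC (3.29% of genes, 1 member at an unadjusted p under 0.05) or between P7 and P0 HPC (1.48%, 1 member), and DESeq2 called 0 in each.

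Of 54 pathway genes tested in Adult against E16 HPC, 20 were called higher and 2 lower by edgeR, or 40.7% beside the 27% of all genes. Il1r1, the interleukin 1 receptor (2.55 ± 0.29), Irf1 (1.05 ± 0.15), the kinase Irak4 downstream of that receptor (1.01 ± 0.15) and Vcam1 (5.73 ± 0.90) led the list by p. The 2 lower ones were Bcl2l1 (-1.16) and Tab2 (-0.71), and 2 of the 3 IkB kinase genes, 3 of 9 receptors tested and 3 of 8 ubiquitin ligase and brake genes were called higher. Between P14 and P7 HPC 4 were higher and 5 lower, or 16.7% beside the 9.88% of all genes, the 4 of smallest adjusted p among the better expressed being Ier3, a stress-response gene (-0.58), the kinase Ikbkb (-0.50), the adhesion molecule Icam1 (0.52) and the receptor Tlr2 (0.60). Adult HPC held more T and NK cell marker RNA than E16 HPC, 432 to 536 CPM against 79.4 to 94.0 CPM over 6 markers, with Cd3e at 0 in every library of both. B cell markers were also higher (649 to 875 CPM in Adult HPC against 466 to 595 CPM in E16 HPC), as were hepatocyte markers (16.9 to 19.8 CPM in Adult HPC against 8.79 to 14.4 CPM in E16 HPC). Between Adult and P14 HPC, where Rel was called, progenitor markers summed to 3018.04 to 4198 CPM in Adult HPC against 4452 to 20835 CPM in P14 HPC, and endothelial markers to 256 to 300 CPM in Adult HPC against 151 to 234 CPM in P14 HPC. The progenitor markers summed to 4452 to 20835 CPM at P14 against 3054 to 3919 CPM at P7, and the B cell markers to 850 to 1031 CPM at P14 against 505 to 589 CPM at P7. Between P14 and E16 HPC, 3 of 9 lists did not overlap, all higher at P14. At E16 the progenitor markers summed to 3346 to 3863 CPM and the B cell markers to 466 to 595 CPM. T and NK cell markers summed to 197 to 459 CPM in P14 HPC against 79.4 to 94.0 CPM in E16 HPC. The part of these in the results for the 10 genes was not tested.

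**Figure D2:**
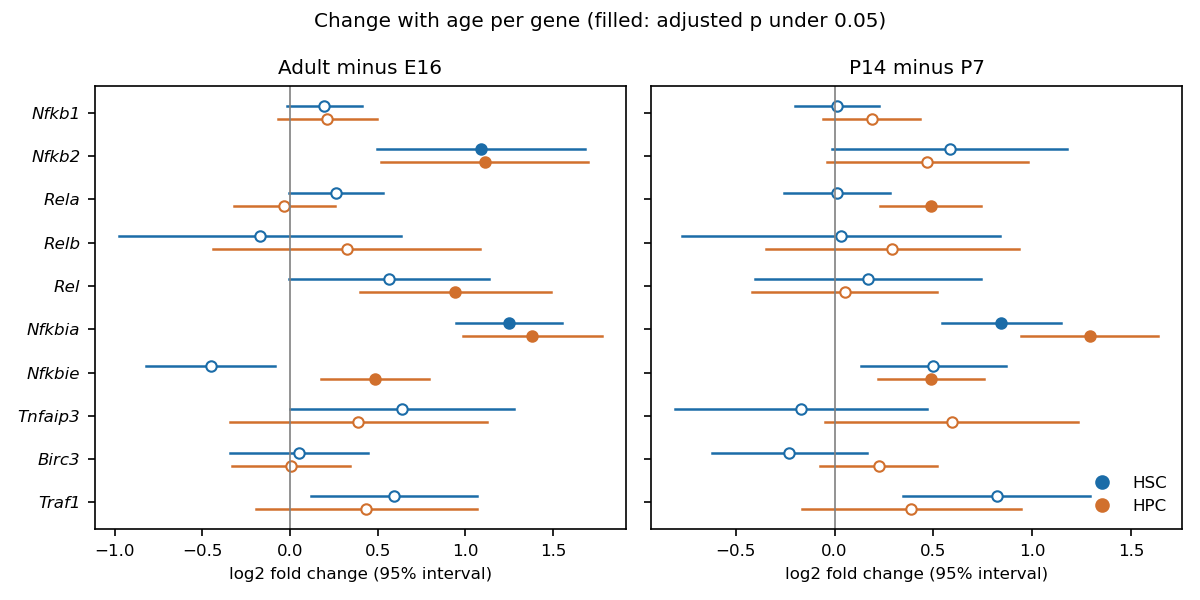
Log2 fold change with its 95% interval for each gene in Adult minus E16 (left) and P14 minus P7 (right), in HSC (blue, limma on log2(RPKM + 0.5)) and HPC (orange, edgeR on counts), with filled points at an adjusted p under 0.05. Nfkbia is filled in all 4 places, and Nfkbie in Adult minus E16 lies at -0.45 in HSC and 0.48 in HPC.

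The change from E16 to Adult was compared between the cell types in a single limma model. It differed for 1 of the 10 members, Nfkbie, at a background of 4.14%. Its Adult minus E16 log2 fold change in HSC, less that in HPC, was -0.92 ± 0.23 (limma adjusted p = 0.0123), and the call held in each of the 15 fits that left out 1 library. For Nfkbia the difference between the cell types was -0.16 (95% interval -0.64 to 0.32, limma adjusted p = 0.797), and for Nfkb2 it was 0.30 (-0.36 to 0.96, adjusted p = 0.698). In P14 against P7, limma called 0 of the 10 members as different between the cell types, with 1 member (Rela) at an unadjusted p under 0.05, and 2.36% of all genes. Of 52 pathway genes, the Adult minus E16 change of the TNF receptor family gene Tnfrsf13c (-1.92) and of Il1r1 (-1.58) was lower in HSC than in HPC, and that of the survival gene Bcl2l1 (1.15) was higher.

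Over the 5 shared ages, 6 members were higher and Rel was lower in HSC than in HPC by limma, at a background of 65.9% of 14070 genes called, 29.9% higher and 36.1% lower. Traf1 and Nfkbia differed most. Traf1 had 3.84, 5.22, 4.90 and 3.86 RPKM in P0 HSC against 1.14, 0.959, 1.001 and 0.826 RPKM in P0 HPC, and 3.95, 6.63, 4.53 and 5.86 RPKM in Adult HSC against 1.42, 1.05, 1.82 and 2.16 RPKM in Adult HPC. The HSC and HPC libraries did not overlap at any of the 5 ages for Traf1 or for Nfkbia. The mean log2 difference was 1.45 ± 0.10 for Traf1 (limma adjusted p = 2.31e-15) and 1.22 ± 0.07 for Nfkbia (adjusted p = 5.14e-17).

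Among the subunits, Nfkb2 (0.86 ± 0.10), Relb (0.83 ± 0.15) and Rela (0.45 ± 0.06) were higher in HSC, and Rel was lower (-0.97 ± 0.12, limma adjusted p = 3.42e-09). Rel had 2.07, 0.961, 1.64 and 2.30 RPKM in Adult HSC against 6.14, 3.84, 4.61 and 4.48 RPKM in Adult HPC, and 1.25, 1.03, 0.654 and 1.02 RPKM in E16 HSC against 2.32, 2.53 and 1.80 RPKM in E16 HPC, without overlap at either age. Nfkb1 was close to level between the cell types (0.07, 95% interval -0.03 to 0.17, limma adjusted p = 0.216), and so were Tnfaip3 (-0.01, -0.24 to 0.22) and Birc3 (-0.09, -0.25 to 0.07). Without TMM scaling Nfkb1 was called higher in HSC (0.16, adjusted p = 0.0129).

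Nfkbie was higher in HSC on the mean of the ages (0.40 ± 0.07, limma adjusted p = 4.96e-06), but its sign differed with age. Tested at each age, in comparisons added after the data were seen, it was higher in HSC by 0.59 at E16, 0.77 at P0, 0.48 at P7 and 0.51 at P14, each called by limma. The P14 call was lost without P14 HSC replicate 4, the library at 30.5 RPKM (0.28, adjusted p = 0.109). In Adult the difference was -0.33 (95% interval -0.64 to -0.02, limma adjusted p = 0.11), with 9.93, 10.03, 8.05 and 9.79 RPKM in HSC against 10.3, 12.3, 12.4 and 13.9 RPKM in HPC and no overlap. By limma 4, 7, 7, 7 and 5 of the 10 members were called at E16, P0, P7, P14 and Adult, at backgrounds of 23.6%, 39.3%, 42.1%, 37.6% and 29%. Several of these calls were lost on leaving out a single library, some of them whichever of several libraries it was. Relb was lost at P0 without HSC replicate 1 or 4 or HPC replicate 2 or 4, at P7 without HSC replicate 2 or 4, and at P14 without HSC replicate 2 or 3 or HPC replicate 1, 2, 3 or 4 (limma adjusted p = 0.0502 to 0.179). Rela was lost at P0 without HSC replicate 2, 3 or 4 or HPC replicate 2 or 3 (0.24 to 0.33, adjusted p = 0.0551 to 0.163). Rel was lost at E16 without HPC replicate 2 (-0.84, adjusted p = 0.0727) and at P0 without HSC replicate 4 or HPC replicate 3 (-0.68 to -0.61, adjusted p = 0.0507 to 0.0661), and Nfkb2 in Adult without HSC replicate 4 (0.57, adjusted p = 0.0666). Age HSC and age HPC carry different library codes, so cell type and code cannot be told apart. They were also deposited in different units, and all 7 calls over the 5 ages were kept with edgeR on counts and recovered reads.

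Of 52 pathway genes tested over the 5 ages, 22 were higher and 14 lower in HSC by limma, or 69.2% beside the 65.9% of all genes. Among 8 receptors tested, 6 were higher, including the TNF receptor Tnfrsf1a (0.98 ± 0.08), Tlr2 (0.79 ± 0.07) and the lymphotoxin receptor Ltbr (1.02 ± 0.09), whereas Il1r1 was lower (-1.78 ± 0.10). None of the 3 IkB kinase genes was higher and 2 were lower in HSC.

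A second set of P0 wild type HSC and HPC in the genotype series gave another view of the cell types, with 5 and 4 libraries. Of 9 marker lists, 6 did not overlap between them. HSC, endothelial and stroma markers were higher and progenitor, B cell and T and NK cell markers lower in HSC. B cell markers summed to 137 to 168 CPM in HSC against 475 to 663 CPM in HPC. T and NK cell markers summed to 16.7 to 29.6 CPM in HSC against 69.6 to 106 CPM in HPC. Their part in the results below was not tested. Traf1 was again far higher in HSC, with 6.30, 7.17, 4.64, 5.71 and 5.04 RPKM in HSC against 0.407, 1.08, 1.61 and 0.390 RPKM in HPC (2.75 ± 0.37, edgeR adjusted p = 3.31e-05). Rel was again lower in HSC, with 0.860, 1.24, 1.74, 1.35 and 0.688 RPKM in HSC against 3.04, 3.22, 4.24 and 2.67 RPKM in HPC (-1.48 ± 0.27, edgeR adjusted p = 0.000372). Neither pair of groups overlapped. Rela (52.4 to 63.7 RPKM in HSC against 41.9 to 50.1 RPKM in HPC; 0.30 ± 0.10, adjusted p = 0.0173) and Birc3 (8.70 to 13.8 RPKM in HSC against 5.97 to 10.6 RPKM in HPC; 0.56 ± 0.16, adjusted p = 0.00914) were also higher and Nfkbie lower (-0.40 ± 0.14, adjusted p = 0.0216) in HSC, so edgeR called 5 of the 10 members, where 56.2% of genes were called, 29.9% higher and 26.3% lower.

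Nfkbia and Nfkbie did not follow the age series at P0. Nfkbia had 67.9, 82.6, 69.6, 58.8 and 52.5 RPKM in wild type HSC against 77.9, 78.4, 58.2 and 72.2 RPKM in wild type HPC, which overlapped (-0.10, 95% interval -0.34 to 0.14, edgeR adjusted p = 0.498). At P0 in the age series the HSC minus HPC difference of Nfkbia was 1.68 ± 0.17 (limma adjusted p = 1.97e-10), and the P0 HPC there had 21.6 to 27.7 RPKM. Nfkbie had 13.0, 11.8, 11.3, 9.41 and 8.73 RPKM in wild type HSC against 13.3, 17.2, 12.3 and 15.01 RPKM in wild type HPC, overlapping and lower in HSC, while in the age series at P0 it was higher in HSC by 0.77 ± 0.16 (limma adjusted p = 0.000132). Nfkb2 had 0.13 (-0.31 to 0.56) in wild type and 1.17 ± 0.23 in the age series. The tables were processed as separate sets with different library codes, and the difference between them was not tested. The Rela call in wild type was lost without HSC replicate 2 or HPC replicate 2 or 3 (0.24 to 0.27, adjusted p = 0.0539 to 0.0745), and the Nfkbie call without HSC replicate 5 or HPC replicate 2 (-0.35 to -0.33, adjusted p = 0.0505 to 0.0787).

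**Figure D3:**
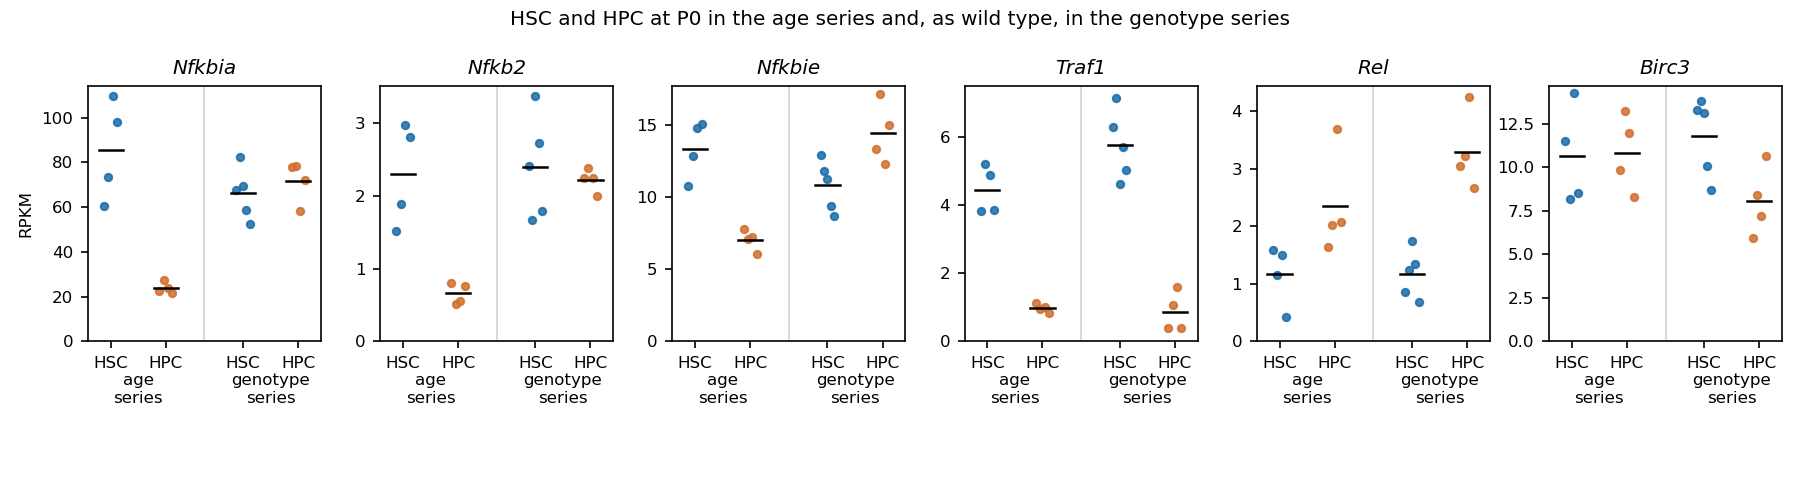
RPKM at P0 of 6 of the genes in HSC (blue) and HPC (orange) of the age series (left pair of each panel) and of the wild type libraries of the genotype series (right pair), 1 point per library with bars at the mean. Nfkbia separates the cell types in the age series (60.4 to 109.7 RPKM in HSC, 21.6 to 27.7 RPKM in HPC) but not in the genotype series, while Traf1 and Rel keep their direction in both.

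Of 54 pathway genes tested between wild type P0 HSC and HPC, edgeR called 14 higher and 15 lower in HSC, or 53.7% beside the 56.2% of all genes. Of the 3 IkB kinase genes, 2 were higher and 0 lower in HSC. Rbck1, a subunit of the linear ubiquitin ligase, was lower in HSC (-1.22), as were the deubiquitinase Otulin (-1.59) and Il1r1 (-1.84), and the brake gene Tnip1 was higher (0.81). Of the pathway genes, 21 were called both here and over the ages of the first table, 12 in the same direction and 9 in opposite directions. Il1r1 was among those lower in HSC in both. Rbck1 (0.85 over the ages, -1.22 here), the inhibitor Nfkbib (0.75 and -0.74), Junb, a transcription factor subunit (0.81 and -1.78), Bcl2l1 (0.56 and -0.54), Sod2, a mitochondrial superoxide dismutase (0.41 and -0.40), Ier3 (0.39 and -0.33) and Sharpin, a subunit of the linear ubiquitin ligase (0.26 and -0.44) were higher in HSC over the ages and lower in the second set. Ikbkb (-0.37 and 0.37) and Tab1 (-0.30 and 0.58) were lower over the ages and higher in the second set. These genes were singled out after their values were seen, and the difference between the sets was not tested.

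None of the 10 genes was called by edgeR between libraries labelled Ifnar ko and wild type in P0 HSC, where 1.15% of genes were called, and DESeq2 also called 0. At an unadjusted p under 0.05 stood 2 members, Nfkb2 and Nfkbie, and 1 of 9 marker lists did not overlap, the neutrophil markers (28.7 to 35.5 CPM in Ifnar ko HSC against 11.3 to 20.6 CPM in wild type HSC). Nfkb2 had 1.46, 1.73, 1.89 and 1.396 RPKM in Ifnar ko HSC against 2.42, 1.67, 3.37, 2.72 and 1.80 RPKM in wild type HSC (-0.56, 95% interval -0.9999 to -0.12, edgeR adjusted p = 0.476). Nfkbie had 8.47, 8.16, 9.22 and 9.40 RPKM in Ifnar ko HSC against 13.0, 11.8, 11.3, 9.41 and 8.73 RPKM in wild type HSC (-0.29, -0.55 to -0.03, edgeR adjusted p = 0.548). Both pairs of groups overlapped. Nfkbia was level between them, with an interval of -0.25 to 0.23.

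In P0 HPC edgeR also called 0 of the 10, at a background of 10.8% of genes called. An unadjusted p under 0.05 and groups that did not overlap were seen in 4 members, all higher in Ifnar ko. The share of all genes that met these looser criteria was not counted, so the 4 have no background beside them. Relb had 0.925, 1.51, 1.39 and 1.96 RPKM in Ifnar ko HPC against 0.509, 0.800, 0.892 and 0.647 RPKM in wild type HPC (0.95 ± 0.32, edgeR adjusted p = 0.07). Nfkbia had 131, 87.6, 89.8 and 81.6 RPKM in Ifnar ko HPC against 77.9, 78.4, 58.2 and 72.2 RPKM in wild type HPC (0.38 ± 0.16, adjusted p = 0.137). Nfkb2 had 4.24, 3.35, 3.32 and 2.50 RPKM in Ifnar ko HPC against 2.24, 2.39, 2.24 and 2.00 RPKM in wild type HPC (0.53 ± 0.22, adjusted p = 0.141). Nfkb1 had 53.3, 53.9, 52.6 and 60.2 RPKM in Ifnar ko HPC against 45.1, 43.7, 42.3 and 48.7 RPKM in wild type HPC (0.23 ± 0.09, adjusted p = 0.134).

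DESeq2 called Relb in this comparison (0.96, adjusted p = 0.0325). With edgeR, Relb was called without Ifnar ko replicate 1 (1.11, adjusted p = 0.0439) and Birc3 without wild type replicate 4 (0.47, adjusted p = 0.0486). The HPC groups also differed in marker RNA. Over 5 B cell markers the sum was 164 to 197 CPM in Ifnar ko HPC against 475 to 663 CPM in wild type HPC, with Ms4a1 at 0 in both, over 6 progenitor markers 1731 to 2383 CPM in Ifnar ko HPC against 3621 to 3975 CPM in wild type HPC, and over 8 macrophage markers 35.0 to 85.1 CPM in Ifnar ko HPC against 123 to 150 CPM in wild type HPC. T and NK cell markers were also lower (36.5 to 59.3 CPM in Ifnar ko HPC against 69.6 to 106 CPM in wild type HPC) and stroma markers higher (4.15 to 15.2 CPM in Ifnar ko HPC against 1.03 to 3.06 CPM in wild type HPC). The part of these in the values above was not tested. Of the other pathway genes, edgeR called 0 higher and 2 lower of 54 in HSC, Vcam1 (-2.29) and Ccl5 (-2.14). Of 53 in HPC it called 2 higher, Il1b (3.33) and Tnfaip2 (2.06), and 3 lower, Irf1 (-0.38), Irak4 (-0.54) and Ccl5 (-2.43). Whether the Ifnar difference itself differs between HSC and HPC was not tested, since the cell types carry different library codes.

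**Figure D4:**
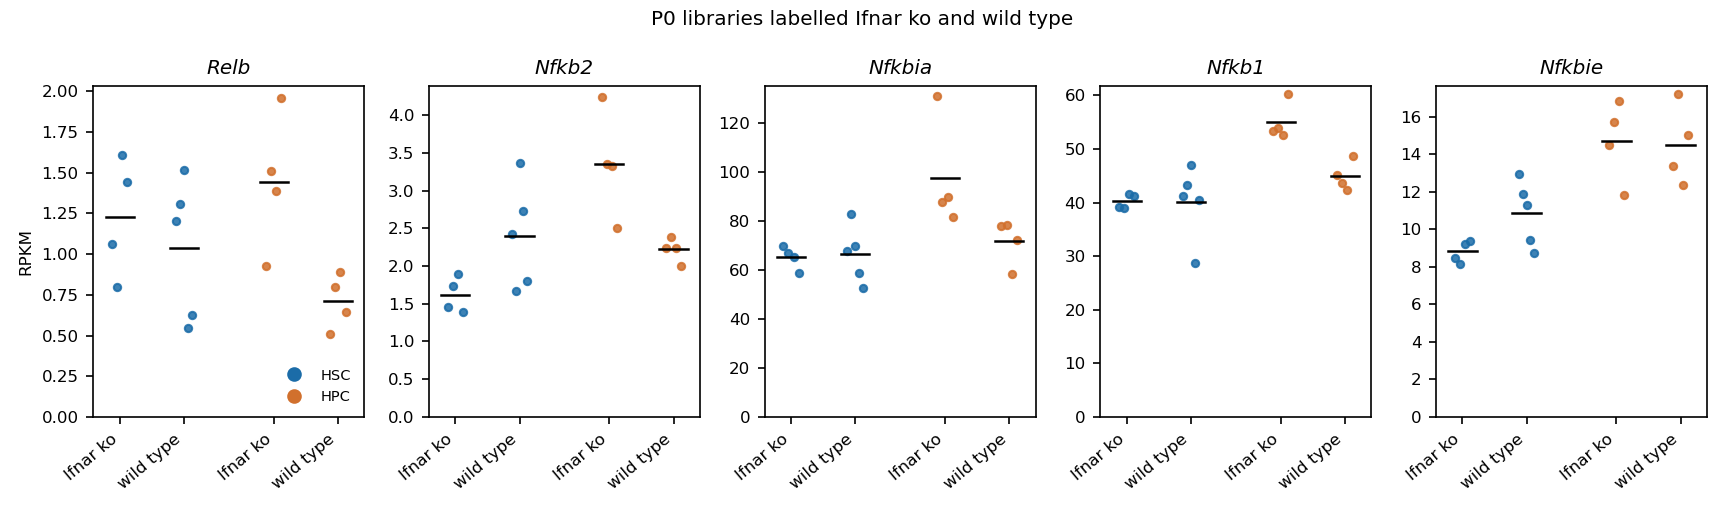
RPKM at P0 of 5 of the genes in libraries labelled Ifnar ko and wild type, in HSC (blue) and HPC (orange), 1 point per library with bars at the mean. Relb, Nfkb2, Nfkbia and Nfkb1 lie higher in all 4 Ifnar ko HPC than in all 4 wild type HPC, and none of these differences passed the edgeR threshold. The share of all genes that separate in this way was not counted.

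Traf1 was the member that differed between genotypes in P14 HPC. It had 0.720, 0.868, 0.851 and 0.958 RPKM in Ifnar +/-, Flt3 ITD/+ HPC against 1.32, 1.08, 1.95 and 1.53 RPKM in Ifnar +/-, Flt3 +/+ HPC, and the groups did not overlap. Its log2 fold change with the ITD was -0.90 ± 0.24 (n = 4 each, edgeR adjusted p = 0.0405), the 1 member called at a background of 5.12%. The call was lost in 6 of 8 fits that left out 1 library (any of the ITD libraries, or replicate 3 or 4 of Flt3 +/+; -0.97 to -0.67, adjusted p = 0.06 to 0.156), and it was also lost with only these 2 groups fitted (adjusted p = 0.15). Without replicate 2 of Flt3 +/+, the library that stood apart, Traf1 fell by 1.05 (edgeR adjusted p = 0.00262) and Rel was called higher with the ITD (1.07, adjusted p = 0.00729), at a background that then reached 32.4% of genes.

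In Ifnar -/- HPC Traf1 had 1.47, 1.95, 1.35, 1.49 and 2.06 RPKM with Flt3 ITD/+ against 1.80, 1.80, 1.59 and 2.24 RPKM with Flt3 +/+, overlapping (-0.09, 95% interval -0.54 to 0.35, edgeR adjusted p = 0.885). EdgeR called 0 members in that comparison (0.956% of genes) and DESeq2 also called 0, and 2 had an unadjusted p under 0.05. Of these, Nfkb1 had 42.8, 48.6, 43.3, 44.99 and 48.5 RPKM with the ITD against 33.4, 37.8, 39.5 and 38.3 RPKM without it (0.35 ± 0.12, adjusted p = 0.268). Tnfaip3 had 0.540, 0.512, 0.255, 0.379 and 0.342 RPKM with the ITD against 0.785, 0.783, 0.598 and 0.744 RPKM without it (-0.78 ± 0.26, adjusted p = 0.246). Neither pair of groups overlapped.

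Loss of Ifnar on the ITD background went with more Traf1. The 5 Ifnar -/-, Flt3 ITD/+ libraries, at 1.35 to 2.06 RPKM, all lay above the 4 Ifnar +/-, Flt3 ITD/+ libraries, at 0.720 to 0.958 RPKM (0.93 ± 0.23, edgeR adjusted p = 0.0282), and Traf1 was the 1 member called at a background of 4.07%. Leaving out Ifnar +/- replicate 1, 2 or 3 or Ifnar -/- replicate 2 or 5 ended the call (0.83 to 0.96, adjusted p = 0.0594 to 0.131). The interaction, the test of whether the ITD difference depends on Ifnar, gave 0.81 ± 0.33 for Traf1 (edgeR adjusted p = 0.122). EdgeR called 0 of the 10 members in the interaction, with 0.0115% of all genes called and 1 member at an unadjusted p under 0.05, and DESeq2 also called 0. Without replicate 2 of Ifnar +/-, Flt3 +/+ the interaction was called for Traf1 (0.94, adjusted p = 0.0267), Rel (-1.43, adjusted p = 0.00655) and Birc3 (-0.54, adjusted p = 0.0499), at a background of 31.3%.

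Between Ifnar -/- and Ifnar +/- on Flt3 +/+, all 10 members had a positive log2 fold change, with a median of 0.29 against 0.04 over 17464 genes, and edgeR called 0 at a background of 4.77%. An unadjusted p under 0.05 was reached by 4 members (Rel, Nfkbie, Tnfaip3 and Birc3), and DESeq2 called Nfkbie (0.45, adjusted p = 0.0432). Nfkbie had 12.1, 14.7, 12.4 and 12.3 RPKM in Ifnar -/- HPC against 6.62, 11.6, 5.66 and 9.03 RPKM in Ifnar +/- HPC, without overlap (0.48 ± 0.17, edgeR adjusted p = 0.0818). Rel had 2.30, 1.17, 1.10 and 1.31 RPKM in Ifnar -/- HPC against 0.489, 1.54, 0.352 and 0.597 RPKM in Ifnar +/- HPC, overlapping through Ifnar +/- replicate 2 (0.82 ± 0.34, adjusted p = 0.115). That replicate was the highest of its group in 8 of the 10 members, all but Relb and Traf1.

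Without that replicate edgeR called 5 members higher in Ifnar -/-, at a background of 34.9%. These were Rel (1.37, adjusted p = 0.00123), Nfkbie (0.64, adjusted p = 0.00499), Birc3 (0.61, adjusted p = 0.00515), Nfkb2 (0.72, adjusted p = 0.0305) and Tnfaip3 (0.81, adjusted p = 0.0396). The values of Relb and Traf1 were then -0.02 each. The 4 genotypes also differed in marker RNA. Between Ifnar -/- and Ifnar +/- on Flt3 ITD/+, where Traf1 was called, progenitor markers summed to 1947 to 2977 CPM in Ifnar -/- against 3749 to 5829 CPM in Ifnar +/-, and neutrophil markers to 12.5 to 21.3 CPM in Ifnar -/- against 3.25 to 7.92 CPM in Ifnar +/-. Between Flt3 ITD/+ and Flt3 +/+ in Ifnar +/-, all 9 lists overlapped, the progenitor markers at 3749 to 5829 CPM in Flt3 ITD/+ against 1611 to 9709 CPM in Flt3 +/+ with or without replicate 2. HSC markers there were 1208 to 1385 CPM in Flt3 ITD/+ against 613 to 2472 CPM in Flt3 +/+, and 613 to 1058 CPM in Flt3 +/+ without replicate 2, which ended the overlap, as it did for hepatocyte markers (6.40 to 9.23 CPM in Flt3 ITD/+ against 10.5 to 18.05 CPM in Flt3 +/+ without replicate 2). Between Ifnar -/- and Ifnar +/- on Flt3 +/+, HSC markers summed to 2141 to 2625 CPM in Ifnar -/- against the same 613 to 2472 CPM in Ifnar +/- (613 to 1058 CPM without replicate 2). B cell markers were 454 to 570 CPM in Ifnar -/- against 639 to 968 CPM in Ifnar +/-, the same without replicate 2, and T and NK cell markers 92.5 to 141 CPM in Ifnar -/- against 154 to 553 CPM in Ifnar +/- (191 to 553 CPM without replicate 2). Their part in the values above was not tested.

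**Figure D5:**
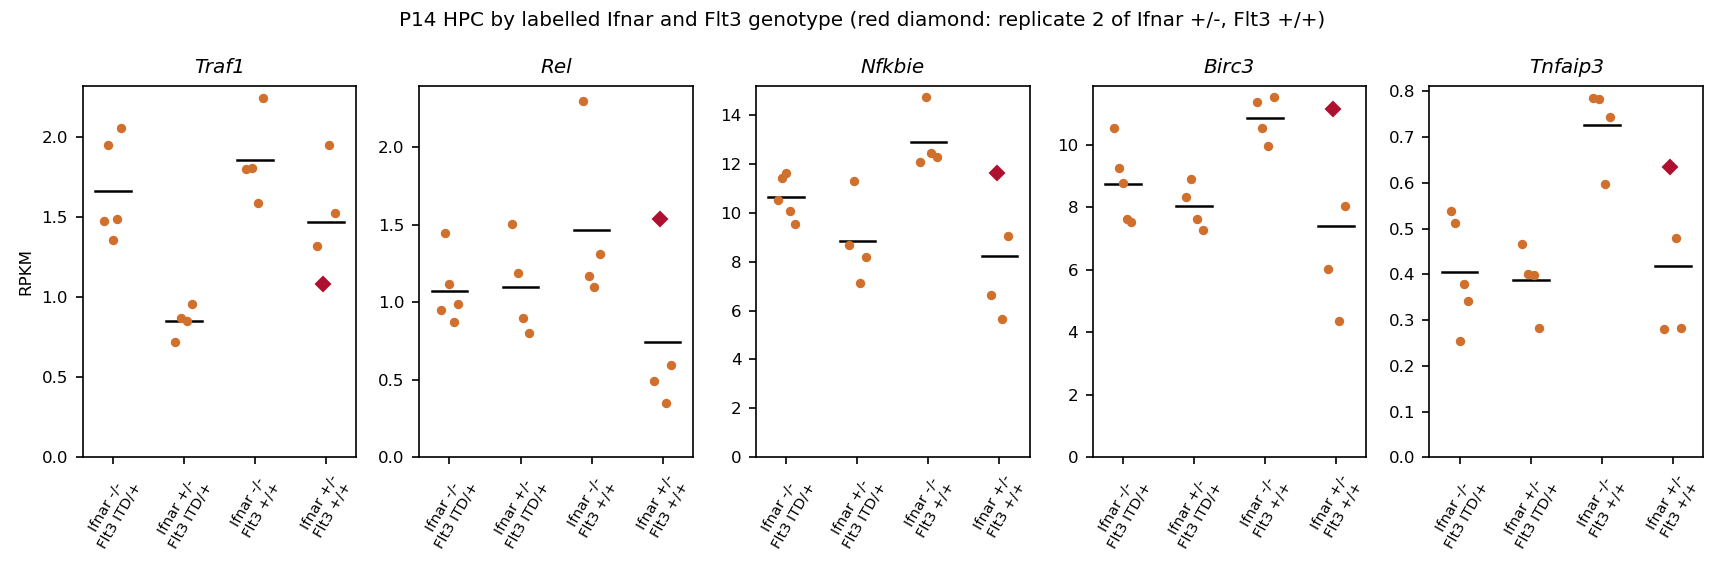
RPKM of 5 of the genes in P14 HPC of the 4 labelled genotypes, 1 point per library with bars at the mean, and a red diamond for replicate 2 of Ifnar +/-, Flt3 +/+. Traf1 is lowest in the 4 Ifnar +/-, Flt3 ITD/+ libraries (0.720 to 0.958 RPKM), and the diamond lies above the rest of its group in Rel, Nfkbie, Birc3 and Tnfaip3.

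Of 55 pathway genes tested in each P14 comparison, edgeR called 3 higher and none lower with the ITD in Ifnar +/-, namely Bcl2l1 (1.04 ± 0.26), Ikbkb (0.82 ± 0.22) and Rnf31, the catalytic subunit of the linear ubiquitin ligase (0.71 ± 0.19). Without replicate 2 of Ifnar +/-, Flt3 +/+, in fits of these genes added after the data were seen, it called 17 higher and 3 lower of 56, at a background of 32.4%, and Bcl2l1 (1.24), Ikbkb (1.01) and Rnf31 (0.90) were still called. With the ITD in Ifnar -/- it called 0 in either direction, with or without that library. Tnfrsf13c was the 1 gene higher in Ifnar -/- on Flt3 +/+ (0.73), and without that library edgeR called 18 higher, Tnfrsf13c among them (0.90), and 1 lower, at a background of 34.9%. Ccl5 was the 1 gene lower in Ifnar -/- on Flt3 ITD/+ (-1.59), and with that library left out of the shared fit Rnf31 was called lower beside it (-0.59, edgeR adjusted p = 0.0274), while Traf1 kept its call there (0.92, adjusted p = 0.0136) at a background of 6.13%. In the interaction edgeR called 0 pathway genes, and without that library 1 higher and 18 lower at a background of 31.3%.

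Across the 12 group means of the age series, the closest and the most opposed pairs of members were these. The Pearson correlation was 0.946 between Nfkb2 and Nfkbia, 0.919 between Nfkb2 and Traf1 and -0.728 between Relb and Rel, given as a description over means that share cell type and library code. Of 14276 genes, those whose means ran most like Nfkbia were Smox (0.961), Enpp5 (0.955) and Gstt3 (0.954), and those most like Nfkbie were Ly6c1 (0.917), Fsd2 (0.886) and Neil1 (0.872).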

How the data were processed

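The authors deposited read counts per gene for age-series HPC and all genotype libraries, and RPKM values for age-series HSC. STAR 3.0.4 and featureCounts 1.4.5 (Subread) are named in the submitters' processing notes, while build and strand setting are not given in the sources used here. Reads of overlapping antisense genes therefore cannot be told apart. The 1 value column that matched no sample and 2 non-mouse entries were not used. RPKM of the other libraries was computed from counts with the same exon lengths. Dividing the HSC RPKM by the value of 1 read gave whole reads for 100% of values (tolerance 1e-05), in part by construction. Exon lengths from GENCODE M21 gave them for 16638 of 25622 detected genes. For the other 8984 the smallest length that gave whole reads in every library was used, so whole reads are no check there. Lengths of Nfkb1, Nfkb2, Rela, Rel, Nfkbia, Nfkbie and Traf1 were set in that way. The test planned for HSC assumed counts, and limma 3.58.1 on log2(TMM-scaled RPKM + 0.5), for genes reaching 1 RPKM, was used instead, also wherever HSC and HPC of the age series were compared, so fold changes of low genes are understated. Other tests were edgeR 4.0.16 quasi-likelihood fits in R 4.3.3. Both were two-sided, with Benjamini-Hochberg adjustment over all genes fitted and a threshold of 0.05, and were tested on simulated data. With only the compared groups fitted, 53.4% of simulated 2-fold changes were recovered in Adult minus E16 HSC. The share was 63.5% in Adult minus E16 HPC and 68.7% for Ifnar ko in P0 HPC. False calls made up 3.33%, 3.85% and 6.85% of the calls. A gene that was not called may thus still have changed. DESeq2 1.42.0, edgeR on recovered reads, other scaling, no filter, a replicate block, fewer groups and left-out libraries were tried. Backgrounds are shares of genes called at the adjusted threshold. Shares of all genes at an unadjusted p under 0.05 were not counted. All 10 members were named, and from 58 other pathway genes up to 4 called per comparison by smallest adjusted p, further ones being named after their values were seen. Members and lists were chosen with earlier results of these data known.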

Additional observations from a re-analysis of the deposited data

Results flagged for a closer look

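Of 170 groups of 4 or 5 libraries tested over the 10 members, 9 (5.29%) held a library far from the others of its group, and chance gives about 1 in 20. Nfkb1 was at 39.2 RPKM in replicate 3 of P7 HPC, above the next library at 36.0 RPKM. Nfkb2 was at 1.67 RPKM in replicate 4 of P14 HPC and at 2.00 RPKM in replicate 2 of P14 Ifnar +/-, Flt3 +/+ HPC, the library that also stood apart over all genes. Nfkbia was at 86.0 RPKM in replicate 2 of Adult HPC and at 131 RPKM in replicate 1 of P0 Ifnar ko HPC, both the highest of their groups. Nfkbie was at 8.05 RPKM in replicate 3 of Adult HSC, the lowest of its group, and at 14.7 RPKM in replicate 2 of P14 Ifnar -/-, Flt3 +/+ HPC, the highest. Rela was lowest, at 38.4 RPKM, in replicate 1 of P14 Ifnar -/-, Flt3 +/+ HPC, and Tnfaip3 was lowest, at 0.238 RPKM, in replicate 2 of P0 Ifnar ko HPC. The Adult minus E16 change of Nfkbie differed between HSC and HPC in a test of that difference (-0.92 on the log2 scale, HSC minus HPC).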

How the results depend on the processing

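Each count of members called was recomputed under other settings, and 109 such counts stayed within 1.5 times while 13 moved. With only the compared groups fitted, the count was 4 against 2 in Adult minus E16 HSC (with Nfkbie lower and Traf1 higher in addition), 0 against 1 in Adult minus P14 HPC, 1 against 3 in P14 minus P7 HPC and 0 against 1 for the ITD in Ifnar +/-. Without TMM it was 2 against 1 in Adult minus P14 HPC and 1 against 3 in P14 minus P7 HPC, and with no filter it was 0 against 1 in Adult minus P14 HPC. DESeq2 called 1 against 0 for Ifnar ko in P0 HPC, 2 against 1 for the ITD in Ifnar +/- (Relb, -0.71, adjusted p = 0.0484, beside Traf1) and 1 against 0 for Ifnar -/- in Flt3 +/+. The causes were not tested. Same-numbered libraries had correlations of -0.22 to 0.23 in their deviations, with no family of fits over 0.1 throughout. In P14 genotype HPC 8 of 24 same-numbered pairs exceeded 0.1. In P0 genotype HSC the median was 0.056 against -0.012 for other pairs. Whether same-numbered libraries share more than a number cannot be told from these values. With the replicate block the count was 3 against 5 between P0 wild type HSC and HPC. It was 1 against 0 for Ifnar -/- in Flt3 +/+ (Nfkbie, 0.50, adjusted p = 0.0469) and 0 against 1 for Ifnar -/- in Flt3 ITD/+ (Traf1, 0.85, adjusted p = 0.0743).

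With 1 library left out the counts ranged over 0 to 1 in P0 minus E18 HSC, 1 to 2 in P14 minus P7 HSC, 2 to 3 in Adult minus E16 HSC, 0 to 2 in Adult minus P14 HPC, 2 to 4 in Adult minus E16 HPC, 1 to 3 in P14 minus P7 HPC, 3 to 5 between P0 wild type HSC and HPC, 0 to 1 for Ifnar ko in P0 HPC, 0 to 2 for the ITD in Ifnar +/-, 0 to 5 for Ifnar -/- in Flt3 +/+, 0 to 1 for Ifnar -/- in Flt3 ITD/+ and 0 to 3 for the interaction. The other planned counts did not move, among them the 7 between HSC and HPC over 5 ages in 40 fits. Single calls were lost in further settings. With no filter these were Nfkb2 and Traf1 in P14 minus E16 HSC (adjusted p = 0.0541 and 0.0548), Nfkbie between P0 wild type HSC and HPC and Rela at P0 (0.0579), with the replicate block Rela (0.0591) and Nfkbie between P0 wild type HSC and HPC, and with no filter, the block or a pseudocount of 0.1 Relb at P14 (0.0514 to 0.068). The Nfkbie calls between HPC ages were lost in 3 or 4 of 5 settings each. No member's called value changed sign. Nfkbia kept each of its calls with age and between cell types in the age series under the alternatives run.

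Counts over all genes moved more. Between E16 and E14 HSC 7 genes were called, against 13 without TMM, 0 with only those groups and 4 with the block. For the interaction it was 2, against 2368 with DESeq2, 0 without TMM and 1 with the block. For the ITD in Ifnar +/- it was 895, against 2597, 568, 164 and 1585 with DESeq2, no TMM, only those groups and the block, and for Ifnar -/- in Flt3 +/+ 833, against 3023, 114, 44 and 1504. For the ITD in Ifnar -/- it was 167, against 428 with DESeq2 and 307 with only those groups, and for Ifnar -/- in Flt3 ITD/+ 710, against 1387, 1398 and 459 with DESeq2, only those groups and the block. DESeq2 called 336 against 186 for Ifnar ko in P0 HSC, 883 against 485 in P0 minus E16 HPC and 416 against 218 in P7 minus P0 HPC. With only the groups compared it was 170 and 640 in those last HPC steps, 133 against 642 in P0 minus E18 HSC, 417 against 790 in P7 minus P0 HSC and 2657 against 4275 in Adult minus P14 HPC. Relb and Tnfaip3, with as few as 5 and 13 reads a library, are limited most by depth.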
